A study of Caenorhabditis elegans with 3 samples.

Results

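The genes described here are 10 genes of the body wall muscle of Caenorhabditis elegans, out of 19973 nuclear protein-coding genes in the annotation. They were chosen by name: unc-112, pat-3, pat-4, pat-6, unc-97, unc-52 and deb-1 of muscle attachment, and unc-54, myo-3 and act-4 of contraction. For each gene, every point source of MEP-1 ChIP-seq (the base at which a region peaks) was taken from the gene body and the 5 kb upstream of its outermost annotated start, called the window below. The values are the authors' score of the region, which is the signal value of the deposited list, and its rank by that score within the list.

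The study mapped MEP-1, a zinc-finger protein of the nucleus, in whole L4 larvae of strain OP102, whose genotype is given as unc-119(tm4063) III; wgIs102. In this strain MEP-1 carries a GFP tag, which replicate 3's label places at the C-terminus together with FLAG, and the fusion comes from an inserted transgene. All 3 biological replicates belong to 1 group of mixed sex, so there is no second genotype, stage or treatment to compare, and the protein that was precipitated is the tagged transgenic form. Replicates 1 and 2 list CGC as their source and replicate 3 lists the laboratory. Each replicate has a relaxed list of 30000 regions on build ce11, which runs into background, and the authors' list of regions kept by the irreproducible discovery rate (IDR), a measure of agreement between replicates, holds 5229. The 5229 regions with the highest scores in a replicate are called its top regions. Read depth is unknown. Because whole animals were used, strong binding in few cells and weak binding in many cells cannot be told apart, and no muscle cells were isolated.

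Body wall muscle of the worm pulls on the cuticle through attachment structures called dense bodies and M-lines. Perlecan in the basement membrane meets integrin in the muscle membrane, and kindlin, integrin-linked kinase, PINCH, parvin and vinculin tie integrin to the actin and myosin filaments. Loss of several of these proteins stops the embryo from elongating and paralyses it, the Pat phenotype after which pat-3, pat-4 and pat-6 are named. MEP-1 works with LET-418, a chromatin remodelling ATPase, and is needed to keep germline genes silent in somatic cells.

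The IDR list had point sources in the windows of 5 of the 10 genes, unc-112, pat-3, pat-4, unc-97 and act-4, against 30.2% of all protein-coding genes and 35.6% of those with windows of similar length. There were 7 point sources in all, or 0.520 per 10 kb of window, against 0.566 for all genes. The other 5, pat-6, unc-52, deb-1, unc-54 and myo-3, had none. The DNA under each of the 7 point sources is shown because these are all the IDR point sources in the windows of the 10 genes. A point upstream of pat-6 that was listed in replicate 3 alone is added for comparison. Each line gives 100 bases around the point source on the strand of the gene (RefSeq genome of assembly WBcel235, which has ce11 coordinates). At the first start of act-4, where the point source lies in the transcribed part, the line gives the 100 bases before that start. Capitals mark GAGAGA or GCGCGC or CGTCTCTT on either strand.
unc-112 (chrV:14696988-14697087, minus strand): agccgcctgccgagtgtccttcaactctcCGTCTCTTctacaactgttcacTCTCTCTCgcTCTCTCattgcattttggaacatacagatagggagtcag
act-4 before the first start (chrX:4960521-4960620, plus strand): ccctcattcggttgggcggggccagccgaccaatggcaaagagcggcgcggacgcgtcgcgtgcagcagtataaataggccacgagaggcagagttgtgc
act-4 in intron 1 (chrX:4962390-4962489, plus strand): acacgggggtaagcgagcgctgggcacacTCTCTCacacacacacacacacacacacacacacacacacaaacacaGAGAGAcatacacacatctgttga
pat-3 distal (chrIII:3916784-3916883, minus strand): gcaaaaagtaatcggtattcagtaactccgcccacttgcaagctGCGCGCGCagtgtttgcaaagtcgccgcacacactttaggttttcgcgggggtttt
pat-3 proximal (chrIII:3915852-3915951, minus strand): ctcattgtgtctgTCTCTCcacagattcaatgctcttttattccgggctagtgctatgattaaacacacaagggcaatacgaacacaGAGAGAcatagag
unc-97 (chrX:5591963-5592062, plus strand): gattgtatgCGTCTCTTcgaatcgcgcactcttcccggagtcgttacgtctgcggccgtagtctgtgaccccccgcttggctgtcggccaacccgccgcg
pat-4 (chrIII:95077-95176, minus strand): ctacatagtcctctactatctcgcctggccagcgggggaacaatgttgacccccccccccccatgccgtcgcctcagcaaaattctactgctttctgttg
pat-6, replicate 3 alone (chrIV:264475-264574, minus strand): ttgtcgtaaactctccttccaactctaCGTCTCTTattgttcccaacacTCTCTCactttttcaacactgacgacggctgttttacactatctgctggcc

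**Figure D1:**
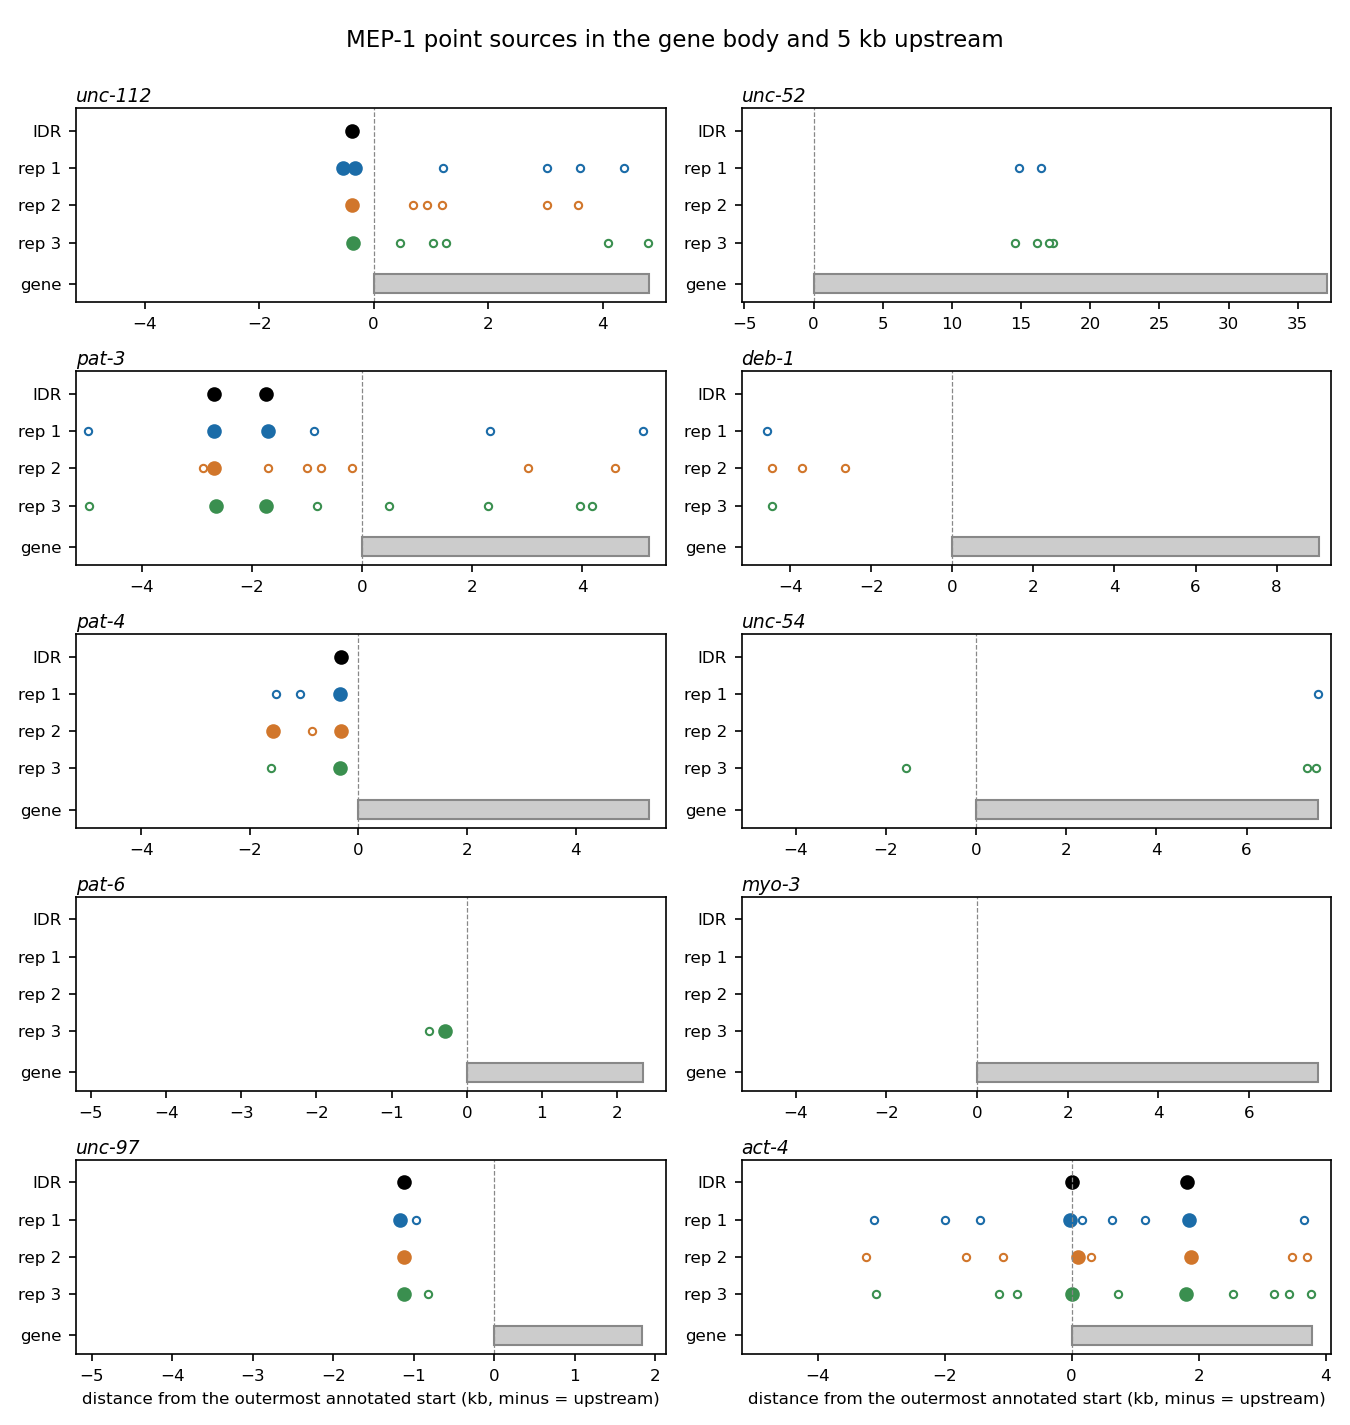
Point sources in the gene body and 5 kb upstream of each of the 10 genes, by distance from the outermost annotated start in kb (grey bar, gene body; dashed line, start), in the IDR list and in each replicate. Filled points are among the 5229 highest-scoring regions of their list and open points are weaker; unc-112, pat-3, pat-4, unc-97 and act-4 have filled points in every replicate, and myo-3 has no point in any list.

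A longer window collects more points, and the windows of the 10 genes ran from 6833 to 42136 bp. The share of 35.6% is over the 11003 genes with windows within these lengths. In the density of all genes, overlapping windows of neighbouring genes were counted for each gene. The density at the 10 genes was thus close to that of all genes and slightly below it. It depends on the longest window, that of unc-52, which held no IDR point source and made up 42136 of the 134646 bp. In the promoter, from 500 bp upstream to 100 bp downstream of any annotated start, unc-112, pat-4 and act-4 had a point source, which is 3 of 10 against 12.7% of all genes and 14.9% of those with windows of similar length. With 200 bp upstream in place of 500, act-4 alone had one. In the gene body only act-4 had one, against 6.40% of all genes.

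The replicates gave nearly the same genes. Among the top regions, replicates 1 and 2 each had point sources in the windows of 5 of the 10 genes, against 30.7% and 30.0% of all genes, and replicate 3 had them at 6, against 31.4%. The same 5 genes had one in all 3 replicates, against 23.9% of all genes, and the sixth gene in replicate 3 was pat-6. These are counts of 10 genes chosen by name with earlier results of these data known, and no test was made of them.

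The strongest region of the set lay upstream of unc-112 (V, 14691855 to 14696654, minus strand), which encodes the worm kindlin, an integrin-binding protein of the attachment. The IDR region spanned 14696826 to 14697161 and its point source stood at −384 bp from the start, with no other protein-coding gene start nearer. Its score was 326, rank 333 of the IDR list. The score was 126 in replicate 1 (rank 360), 126 in replicate 2 (rank 413) and 81.0 in replicate 3 (rank 189). In every replicate the region stood high in the list. Fewer than 4% of protein-coding genes had a best rank as strong: 3.41% in replicate 1, 3.83% in replicate 2 and 1.92% in replicate 3. The replicates placed the point source within 52 bp of each other. Replicate 1 also listed a second, weaker region at −536 bp with rank 4767.

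The 3 protein-coding genes whose promoter regions had the most similar ranks to that of unc-112 were scpl-3, myrf-2 and vps-25. Likeness was the distance between log10 ranks in the IDR list and the 3 replicates, over 2492 other genes with a promoter region in all lists, and it was 0.0592, 0.0871 and 0.129.

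pat-3 (III, 3908931 to 3914149, minus strand) encodes the only beta integrin of the worm and had its IDR point sources far upstream. The distal one, at −2685 bp, had a score of 165 (rank 1331). It ranked 852 in replicate 1, 2724 in replicate 2 and 2016 in replicate 3. This point lay at −133 bp from the start of ccdc-47, the divergent neighbour, so by position it belongs to the promoter of that gene. The proximal one, at −1753 bp, had a score of 82.4 (rank 3702), and it too lay nearer to ccdc-47, at −1065 bp from it. It scored 36.1, 21.6 and 23.5 in replicates 1, 2 and 3. It ranked 3742 in replicate 1 and 2645 in replicate 3, while in replicate 2 it ranked 7803, below the top regions. No IDR point source fell in the promoter of pat-3 itself. A weak point source between them and the gene recurred at −876, −753 and −821 bp in replicates 1, 2 and 3, with ranks 10125, 20474 and 5838, all below the top regions.

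The next 3 genes encode proteins known to form a complex at the integrin tail. pat-4 (III, 89453 to 94809, minus strand), the integrin-linked kinase gene, had a point source at −318 bp in its own promoter. Its score was 95.9 (rank 3017 of the IDR list), 41.3 in replicate 1, 31.3 in replicate 2 and 15.7 in replicate 3. The ranks were 3062, 4742 and 4688, so it was a top region in every replicate but close to the limit in replicates 2 and 3. A second point source near −1568 bp ranked 4824 in replicate 2, 16002 in replicate 1 and 10692 in replicate 3, and it lay between pat-4 and the small gene C29F9.8, whose start is the nearest protein-coding one.

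unc-97 (X, 5593133 to 5594965, plus strand), which encodes the LIM domain protein PINCH, had a single IDR point source at −1120 bp, outside the promoter as defined here. The nearest protein-coding start was that of unc-97 itself. Its score was 117 (rank 2263) in the IDR list, and it was 36.9, 50.2 and 32.9 in replicates 1, 2 and 3. The ranks were 3624, 2350 and 1467, so replicate 3 placed it highest and replicate 1 lowest. Replicates 2 and 3 placed the point source within 2 bp of the IDR position and replicate 1 placed it 51 bp away.

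pat-6 (IV, 261886 to 264232, minus strand), the parvin gene, was the only gene of the 10 with a top region in its window in some replicates and not in others. Replicate 3 had a region from 264327 to 264722 with its point source at −293 bp, a score of 24.5 and rank 2473, and a weaker one beside it with rank 5242. Replicates 1 and 2 listed no point source anywhere in the window, although their lists run to 30000 regions, and the pooled list held no region that overlapped those of replicate 3. Such regions were more frequent in replicate 3: 196 of its 5229 top nuclear regions (3.75%) overlapped no region of the other replicates' lists, against 0.327% in replicate 1 and 0.403% in replicate 2. Replicate 3 also differs from the others in its labelled source and fragmentation note, and whether that has a part in the pat-6 region was not tested.

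**Figure D2:**
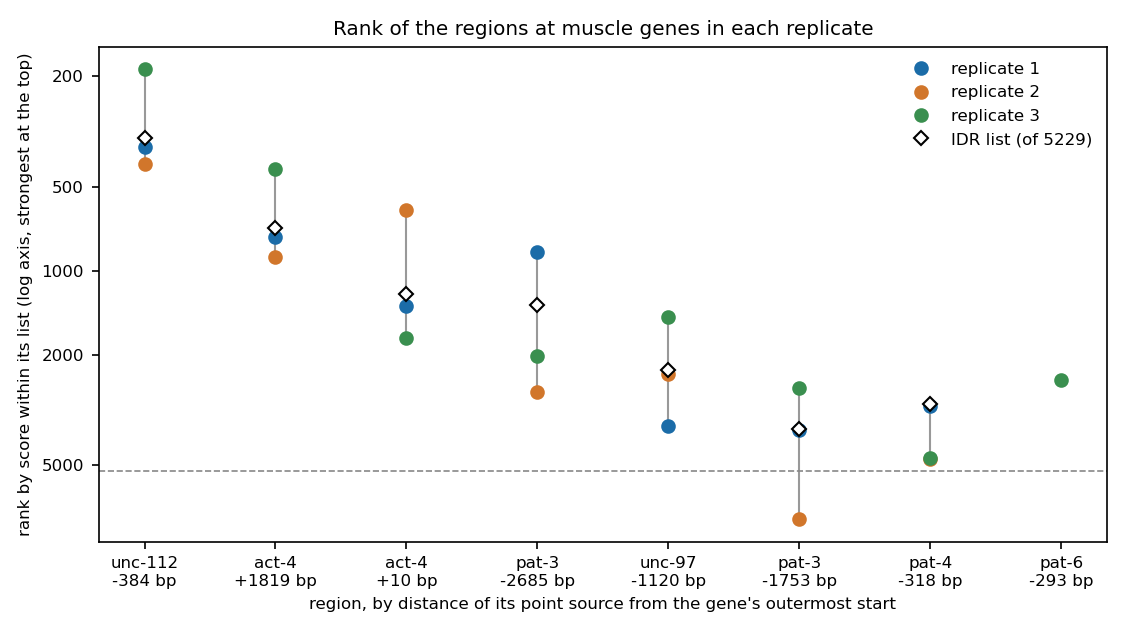
Rank by score of each region at a muscle gene in replicates 1 to 3 (coloured points, joined by a line over their range) and in the IDR list (open diamonds), on an inverted log axis with the strongest at the top. The dashed line marks rank 5229; unc-112 ranks 189 to 413, the proximal pat-3 region drops below the line in replicate 2 at 7803, and pat-6 has a point from replicate 3 alone.

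unc-52 and deb-1 complete the attachment genes, and neither had an IDR point source in its window. unc-52 (II, 14647321 to 14684456, minus strand) encodes perlecan, the basement membrane proteoglycan that anchors the muscle, and has the longest body of the set at 37136 bp. Replicate 2 listed no point source in its window. Replicate 1 listed 2 and replicate 3 listed 4, all in intron 11, upstream of starts of shorter transcripts inside the gene. The strongest were rank 9392 in replicate 1 and rank 13632 in replicate 3, the latter at −210 bp from such a start, and none was a top region.

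deb-1 (IV, 7085215 to 7094266, minus strand), which encodes vinculin, a dense body protein that links integrin to actin, had no point source in its body in any replicate. A weak one near −4459 bp recurred in replicates 1, 2 and 3 with ranks 27503, 16600 and 24242, at the start of the neighbouring gene ZC477.4. These ranks lie in the lower part of the relaxed lists, where background regions are included by design.

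Of the contraction genes, only act-4 had IDR point sources. act-4 (X, 4960621 to 4964413, plus strand) encodes an actin and has 2 annotated transcript starts, and each had a region. The first point source lay in the 5′ UTR at 10 bp from the outermost start, with a score of 175 (rank 1213). Its score was 68.5 in replicate 1, 105 in replicate 2 and 29.8 in replicate 3. It ranked 1334 in replicate 1, 604 in replicate 2 and 1749 in replicate 3. The second lay in intron 1, at −435 bp from the start of the shorter transcript, with a score of 231 (rank 703). Its scores were 91.9, 87.7 and 58.4 and its ranks 754, 889 and 432 in replicates 1, 2 and 3. Replicate 2 ranked the first region above the second, and replicates 1 and 3 ranked the second above the first.

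Around these regions the relaxed lists held many weaker point sources. The windows of the 10 genes had 30 in replicate 1, 29 in replicate 2 and 38 in replicate 3, of which 8, 7 and 8 were top regions. Outside the IDR regions, 8 places at 6 genes had a weaker point source in all 3 replicates within 250 bp of that in replicate 1. At unc-112 it lay in intron 2, at 1207 bp from the start in replicate 1, with ranks 12052, 9454 and 7303. At act-4 one lay at −3121 bp in replicate 1, with ranks 7404, 15603 and 5435, and −82 bp from the start of the neighbour M03F4.4. Another lay in the 3′ UTR of act-4 with ranks 15934, 12931 and 9792. At pat-3 one lay at −4987 bp in replicate 1, with ranks 13598, 26924 and 9656. In replicate 1 that point was inside another gene, ZK1058.3, 267 bp from its start. Only the place upstream of pat-4 held a top region in any replicate, replicate 2.

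Actin genes are near-identical in their coding parts, which can blur the placement of reads. Of the stretches of 36 bases in the region at the first act-4 start, 100% occur once in the nuclear genome. In the intronic region 301 of 306 (98.4%) do. The regions at unc-112, pat-3, pat-4 and unc-97 had 100%.

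unc-54 (chromosome I, 14855901 to 14863482, minus strand) encodes the major myosin heavy chain of body wall muscle. It had no IDR point source and no top region in its window. A weak point source recurred at its very 3′ end, at 7576 bp from the start in replicate 1, 7587 bp in replicate 2 (just past the annotated end) and 7540 bp in replicate 3. Its ranks were 8181, 11540 and 9898, and it lay at −79 bp from the start of the neighbouring gene aex-5 in replicate 1. Upstream of unc-54, replicate 3 alone listed a point source, at −1551 bp with rank 22056.

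myo-3 (V, 12226817 to 12234343, minus strand) encodes the myosin heavy chain at the middle of the thick filament, without which the filament does not assemble. It was the only gene of the 10 with no point source in the window in any of the 3 relaxed lists. This is common: 36.1% of all protein-coding genes had none. The nearest listed point sources lay 8225 bp from its start in replicate 1, 8912 bp in replicate 2 and 7670 bp in replicate 3, with ranks 19819, 24115 and 14343. The nearest IDR point source was 43175 bp away. Binding weaker than the relaxed lists hold was not detectable here.

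**Figure D3:**
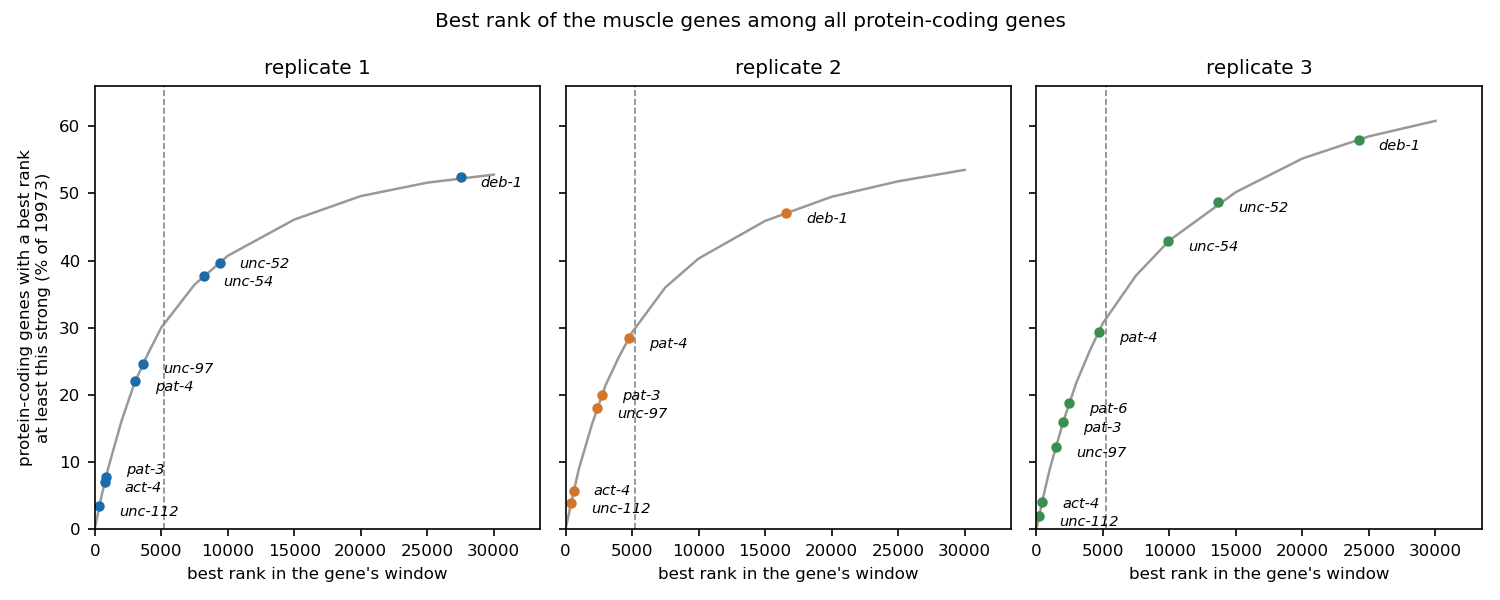
Share of 19973 protein-coding genes (y axis, %) whose best rank in the gene body and 5 kb upstream is at least as strong as the rank on the x axis, for each replicate (grey line). Points are the muscle genes with a listed point source, and the dashed line marks rank 5229; unc-112 and act-4 lie at the lower left in each replicate, and unc-52, unc-54 and deb-1, where listed, lie right of the dashed line.

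Ordered by the median rank over the replicates, the 7 regions ran from unc-112 (360) through act-4 in intron 1 (754), act-4 at the first start (1334), the distal pat-3 region (2016), unc-97 (2350) and the proximal pat-3 region (3742) to pat-4 (4688). The range of ranks at unc-112 (189 to 413) did not overlap that of the next region (432 to 889). All 5 other pairs of neighbours in this order had overlapping ranges. Within each replicate, however, unc-97 ranked above the proximal pat-3 region: 3624 against 3742, 2350 against 7803 and 1467 against 2645. In the remaining overlapping pairs the order changed between replicates. The highest rank number of a region was 1.55 times its lowest at pat-4 and 3.20 times at the distal pat-3 region. Over 5097 nuclear IDR regions met in all 3 lists this ratio had a median of 2.05 and quartiles of 1.59 and 2.83, so 6 of the 7 regions lay above the median. Both regions of pat-3 (3.20 and 2.95) and act-4 at its first start (2.90) also lay above the upper quartile, and pat-4 lay below the lower one. The replicates put the point source of that act-4 region up to 137 bp apart, against a median of 61.0 bp and an upper quartile of 107 bp over all regions. Of the 7 regions, 6 were top regions in all 3 replicates, against 62.6% of those 5097 regions.

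Several of the genes had an IDR point source just past the 3′ end, outside the window. This comparison was added after the lists were seen. Within 500 bp past the gene end, pat-3, pat-4, pat-6 and deb-1 had one, 4 of the 10 against 5.59% of all genes. The strongest was the region past deb-1, with a score of 254 (rank 588) and ranks 495, 727 and 767 in replicates 1, 2 and 3. Its point source was 243 bp past the end of deb-1 and at −290 bp from the start of rps-4, a ribosomal protein gene. The one past pat-6 had a score of 183 (rank 1112), with ranks 1126, 1101 and 2000, and lay at −114 bp from the start of pqbp-1.1. Both are therefore in the promoter of the next gene.

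The other 2 lay outside the promoter, as defined here, of the nearest protein-coding gene. Past pat-4 the point source (score 145, rank 1610) lay 127 bp from the gene end and ranked 1726, 1827 and 1690 in the replicates, stronger than the region in the pat-4 promoter in each of them. The nearest protein-coding start, that of mrpl-40, was 1767 bp away. Past pat-3 the point source (score 119, rank 2230) lay 464 bp from the end and at −780 bp from mmcm-1. It ranked 2221 and 3686 in replicates 1 and 2. In replicate 3 the only point source within those 500 bp ranked 20720, below the top regions. A replicate 3 region with its point source just beyond the 500 bp was not looked for.

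Sequence under the 7 regions varied in base composition. The 100 bases around the point source (at act-4 too) held 43.0% G and C at the proximal pat-3 region and 64.0% at unc-97, the lowest and the highest of the 7, against a median of 44.0% and an upper quartile of 51.0% over 5209 nuclear IDR regions. Of the 7, 6 lay above that median and 4 above that upper quartile. GAGAGA, a repeat bound by GAGA factors in other animals, was present on either strand at 3 of the 7 (unc-112, the proximal pat-3 region and act-4 in intron 1) and at the replicate 3 region of pat-6, against 26.3% of all IDR regions. In repeats its matches overlap each other. GCGCGC was present at the distal pat-3 region alone, against 5.09%. CAGCTG and CACCTG, E-boxes of the kind bound by the muscle factor HLH-1 and its MyoD relatives, were in none of the 7, against 2.67% and 2.38% of all regions. A run of 8 T (7.05%), CTGCGTCTC (7.56%) and the CArG box of serum response factor (0.230%) were also in none.

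A further sequence was noticed while reading the bases and then counted. CGTCTCTT, which shares the letters CGTCTC with CTGCGTCTC, stood at unc-112, unc-97 and the replicate 3 region of pat-6, which is 2 of the 7 IDR regions against 3.97% of all. As it was picked from these sequences, its count here is a description only.

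In the promoters, taken as 250 bases before to 50 bases after the outermost start, GAGAGA occurred at 3 of the 10 genes (unc-112, unc-54 and myo-3) against 21.8% of all protein-coding promoters. Of these, only unc-112 had a MEP-1 point source near its start. A run of 8 T occurred at unc-112, pat-3 and pat-4, against 32.5%. CACCTG occurred at pat-3, against 8.48%. CAGCTG (5.55%), GCGCGC (3.58%), CTGCGTCTC (2.93%), CGTCTCTT (2.04%) and the CArG box (1.55%) occurred at none of the 10.

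A further 89 genes, chosen by name as parts of the muscle machinery or related to it, were counted in 6 lists by role. In the promoter 11 of the 89 had an IDR point source (12.4%), against 12.7% of all genes. This count was 5, 7 and 6 without replicates 1, 2 and 3, where a region had to be a top region in both remaining replicates, which 67.8%, 68.4% and 72.6% of the IDR regions were. It was 2 with 200 bp upstream. In the window 33 of the 89 had one (37.1%), against 30.2% of all genes. The share was 35.6% of genes with windows as long as those of the 10. No share was matched to the window lengths of the 89. In the filament list 8 of 30 genes had a promoter point source (26.7%); no test was made of this count. They were led by the actin capping protein genes cap-2 (score 574, rank 72) and cap-1 (239, rank 656), followed by the actin gene act-2 (213, rank 832) and unc-60 (173, rank 1231), which encodes cofilin. The promoter point source of cap-2 ranked 59, 96 and 142 in the 3 replicates, above every region at the 10 genes. act-2 belongs to a cluster of near-identical actin genes, and whether the bases of its region occur once in the genome was not checked, so its value is uncertain. The remaining 4 were lev-11, unc-94, unc-45 and act-5, and none of these was a top region in all 3 replicates. lev-11 ranked 5799 and act-5 ranked 14441 in replicate 2, and unc-94 ranked 8815 in replicate 3. unc-45 ranked 9316 in replicate 3 and had no rank in replicate 1. Expression in muscle was not measured, so a listed actin gene such as act-5 need not act in body wall muscle.

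Over all protein-coding genes, 12.7% had an IDR point source in the promoter and 30.2% in the window. The counts of the remaining lists are given beside these shares and were not tested. Other attachment proteins had a promoter point source at 1 of 18 genes, rsu-1 (score 175, rank 1212), which encodes a partner of PINCH. In the window 9 of 18 had one. Excitation and coupling genes had 2 of 17, stn-1 (78.6, rank 3926) and snf-6 (72.3, rank 4382), and 8 of 17 in the window. In replicates 1, 2 and 3, stn-1 ranked 7752, 2436 and 5751, a top region in replicate 2 alone. snf-6 ranked 2211, 11183 and 14201, a top region in replicate 1 alone. Basement membrane genes had 0 of 13 in the promoter and 3 of 13 in the window, and epidermal attachment genes 0 of 8 and 3 of 8. The muscle regulators hlh-1, unc-120 and hnd-1 had no IDR point source in promoter or window.

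**Figure D4:**
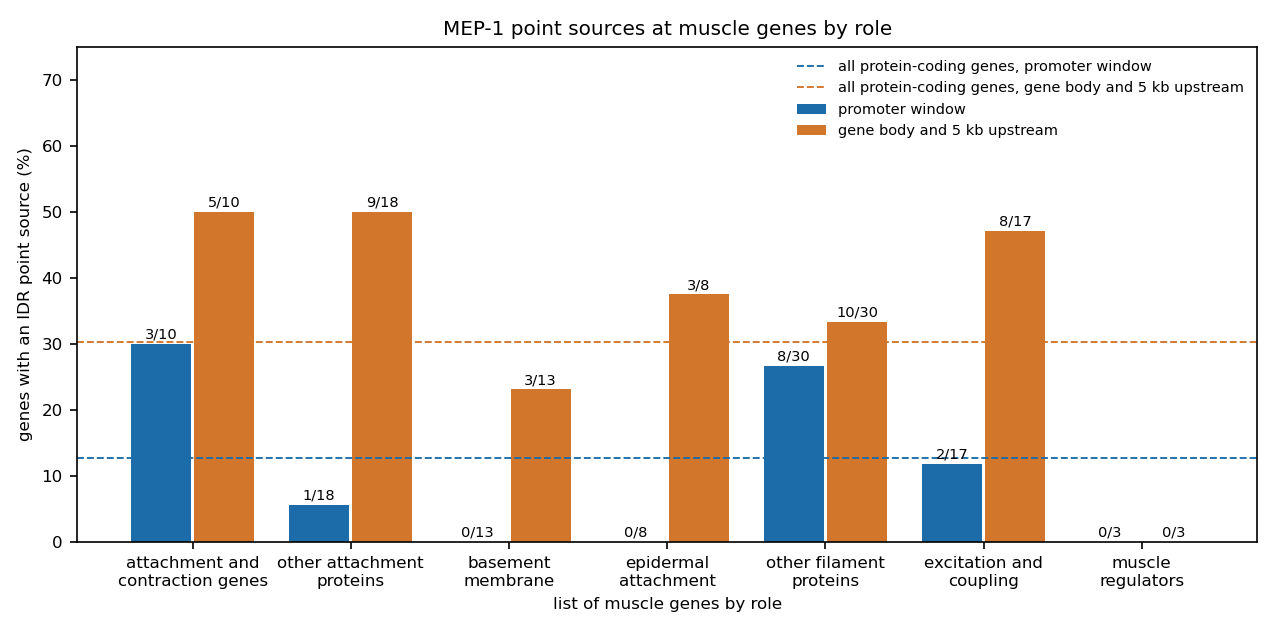
Share of genes (%) with an IDR point source in the promoter (blue) and in the gene body and 5 kb upstream (orange). Bars are for the 10 attachment and contraction genes and 6 other lists by role, with counts above them. Dashed lines give the share of all 19973 protein-coding genes, 12.7% and 30.2%; the promoter bar of the filament list (8 of 30) stands above its line, and that of the basement membrane list is at 0.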

How the data were processed

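The deposited region lists hold a score per region (signal value) with a −log10 q-value, written by the caller that the authors used. Per the labels, each replicate has a relaxed list and the pooled replicates another, made as input for the IDR procedure. The sources used here name no aligner, caller, setting or IDR threshold, nor the scale of the score. Many −log10 values are tied at the top, so rank was taken from the score, within 1 list at a time. Only ce11 lists were used. Coordinates are 1-based.

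Genes came from Ensembl release 115 (WBcel235). All listed regions lay within the RefSeq chromosomes, and 99.8% of 31853 coding transcripts began with ATG there. Point sources were assigned with Python 3.11.15 and numpy 2.4.6, and the assignment was tested on simulated data. A region of another list was the same region where it overlapped by at least 1 bp. A recurring weak point source lay within 250 bp of that in replicate 1. There was 1 group, so no test between conditions was possible. Named genes are the 10 genes, those with the nearest start to a described point source, the 4 strongest promoter regions of each other list, and the 3 genes most like unc-112; lev-11, unc-94, unc-45 and act-5 were named after their values were seen. The members and lists were chosen with earlier results of these data known.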

Additional observations from a re-analysis of the deposited data

How the results depend on the processing

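The window count of 5 genes was the same with 2 kb or 10 kb upstream and without each replicate in turn. With 2 kb, the count of genes with a top region in all 3 replicates fell from 5 to 4. The window count was again 5 with the upstream part cut at the body of the next protein-coding gene. That cut keeps a neighbour's promoter, so it could not remove the pat-3 points, which lie nearer to ccdc-47. The pooled list also gave 5, but each region has the same score and rank there, so this is no independent check. Overlap of the region gave 6, because the region past the end of pat-6 reaches into it, and the 2614 strongest regions of the IDR list gave 4, without pat-4. The gene body alone gave 1 gene (act-4), 2 point sources, and 1 gene for the top regions of all 3 replicates. The promoter count of 3 fell to 1 (act-4) with 200 bp upstream, and that of the 89 other genes from 11 to 2. With 1000 bp upstream and 200 bp downstream these counts were 3 and 15. The count for the 89 was 5 in the 2614 strongest regions and 5 to 7 when a replicate was left out. Without a replicate, the window count stayed at 5, the promoter count at 3, the count in the top regions of the remaining replicates at 5, and the point sources at 6 to 7. With the top 2500 regions, 2 genes (unc-112 and act-4) had a point source in all 3 replicates. Among genes with windows as long as those of the 10, 14.9% had a promoter point source and 35.6% one in the window. No paired analysis was possible because there is 1 group. Depth is unknown, so a gene with no point source may have binding below the lists' reach.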
